A study of Mus musculus with 28 samples.

Results

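Whole liver of macrophage-specific Pparg knockout mice (KO) was set against that of wild-type mice (WT) after 28 days of gavage, with both gavage agents in the fit. The comparison uses 12 of the 28 libraries of the series, chosen by their labels: 6 KO libraries (3 under DEHP and 3 under CMC) and 6 WT libraries (3 under DEHP and 3 under CMC), numbered 5 to 7 within each group. DEHP is di(2-ethylhexyl) phthalate, a plasticizer, given at 625 mg/kg, and CMC is carboxymethyl cellulose, the 0.5% suspension that served as its vehicle. All mice were labelled C57BL/6, male and 20 to 30 g. The labels name neither the promoter that drives the deletion nor the age of the mice, and they give 12 mice a group without tying mice to libraries, so that p-values measure the spread between libraries, which may be technical. Levels are deposited FPKM, the fragments of a gene divided by its length and by the mapped fragments of the library. Differences are on the log2(FPKM + 1) scale, KO minus WT with agent as a covariate, and calls were made with limma where the Benjamini-Hochberg adjusted p was under 0.05.

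PPARgamma, the protein of Pparg, is a nuclear receptor that pairs with RXR and switches on genes of fatty acid uptake, lipid storage and cholesterol export. In macrophages it is known for restraining inflammatory genes and for the lipid-handling state of tissue macrophages. The resident macrophages of the liver are the Kupffer cells, which line the sinusoids and make up a small share of liver RNA beside the hepatocytes. A gene lost only in these cells can therefore be hidden in a whole-liver value when hepatocytes express it too.

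The 12 libraries were rich in hepatocyte transcripts, with the albumin gene Alb between 22853 and 42760 FPKM and the transthyretin gene Ttr between 3090 and 4385 FPKM. Their sex transcripts went against the label: Xist, the RNA of the inactive X chromosome, lay between 26.7 and 41.0 FPKM, and 4 genes of the Y chromosome (Ddx3y, Eif2s3y, Kdm5d and Uty) stood at 0 in 12 of 12. At 90 days Xist was at most 0.02 FPKM. Summed FPKM ran between 514267 and 547757 a library, and between 9738 and 10641 genes reached 1 FPKM. The spacing of low values in short genes put the depth at 8580000 to 11470000 fragments. This is approximate, since only 52.3% to 61.9% of those values lay within 0.15 of a whole number of steps. The first principal component of the 12 libraries (54.1% of variance) separated the agents. The second (15.9%) set WT CMC replicate 7 (-26.1) and WT DEHP replicate 5 (-34.9) apart from the other 10 libraries (-1.5 to 11.9). The list medians and genes that these 2 wild-type libraries move most are therefore given with and without them.

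Lyz2, which encodes the lysozyme of myeloid cells, was near absent from every KO library. Under DEHP Lyz2 had 2.27, 2.67 and 0.73 FPKM in KO libraries, against 38.5, 81.6 and 81.7 FPKM in WT libraries. Under CMC Lyz2 had 1.75, 1.5 and 1.28 FPKM in KO libraries, against 90.7, 120.0 and 50.1 FPKM in WT libraries. The highest KO library stood far below the lowest WT library, and the group means of KO were 2.81% of WT under DEHP and 1.74% under CMC. Lyz2 fell by 4.80 on the log2 scale (SE 0.252, 95% interval -5.34 to -4.26, adjusted p = 3.78e-07). In a whole-organ sample, fewer cells of a type and less RNA per cell cannot be told apart. As background, a widely used mouse strain for deletion in myeloid cells carries the Cre recombinase inside Lyz2 and loses Lyz2 expression from that copy. Whether the mice here carry that construct was not tested.

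Lyz1, the lysozyme best known from Paneth cells of the intestine, was the other of 2 called genes, both lower in KO (0.0184% of 10862 tested). Under DEHP Lyz1 had 0.61, 0.76 and 0.42 FPKM in KO libraries, against 3.02, 3.39 and 2.01 FPKM in WT libraries. Under CMC Lyz1 had 0.35, 0.53 and 0.81 FPKM in KO libraries, against 4.18, 3.58 and 2.92 FPKM in WT libraries. The groups did not overlap, and Lyz1 fell by 1.39 (SE 0.126, 95% interval -1.67 to -1.12, adjusted p = 2.04e-04). Its mean in KO was 18.2% of that in WT, which for Lyz2 was 2.21%. Every Lyz1 level in KO was under 1 FPKM.

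The genes neighbour each other on chromosome 10 of GRCm38, both on the minus strand, with Lyz2 at chr10:117277541-117282272 and Lyz1 at chr10:117287795-117292868 in RefSeq. Their coding sequences are near copies, which is why their opening stretches are shown here: fragments of an abundant gene can be counted for its copy, so the Lyz1 values are uncertain. Over 447 coding bases of the GENCODE M21 transcripts the genes differ at 22 positions (95.1% identity), and the longest identical run has 118 bases. Of the 50-base windows of the whole Lyz2 transcript, 15.4% occur unchanged in the Lyz1 transcript, and of the 100-base windows 1.97% do. The first 180 coding bases hold 15 of the differing positions, written in capitals.
Lyz2: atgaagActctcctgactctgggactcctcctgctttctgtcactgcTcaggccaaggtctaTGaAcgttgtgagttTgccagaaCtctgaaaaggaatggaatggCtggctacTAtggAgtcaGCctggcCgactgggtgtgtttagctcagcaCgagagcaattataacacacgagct
Lyz1: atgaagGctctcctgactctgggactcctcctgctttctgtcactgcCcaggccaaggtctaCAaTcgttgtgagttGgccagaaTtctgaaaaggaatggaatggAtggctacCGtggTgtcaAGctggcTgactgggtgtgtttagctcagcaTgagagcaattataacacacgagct
The sources used here do not say how fragments matching both genes were counted, and the part of shared fragments in the Lyz1 difference was not tested.

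**Figure D1:**
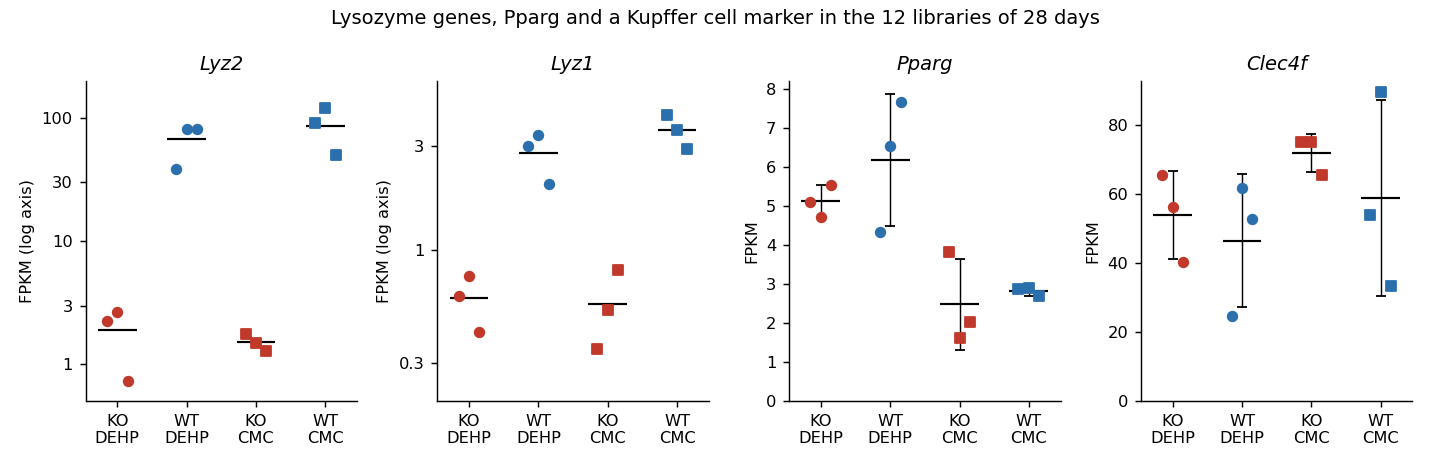
FPKM of Lyz2 and Lyz1 (log axes) and of Pparg and the Kupffer cell marker Clec4f (linear axes) in the 12 libraries of 28 days. Points are libraries (KO red, WT blue; circles DEHP, squares CMC), lines are group means, and bars on the linear panels are 1 SD. Lyz2 lies between 0.73 and 2.67 FPKM in KO and between 38.5 and 120.0 FPKM in WT, while the genotypes overlap for Pparg and Clec4f.

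Pparg itself was low in whole liver and did not separate the genotypes. Under DEHP Pparg had 5.09, 4.72 and 5.54 FPKM in KO libraries, against 4.33, 6.54 and 7.65 FPKM in WT libraries. Under CMC Pparg had 3.81, 1.61 and 2.02 FPKM in KO libraries, against 2.87, 2.89 and 2.69 FPKM in WT libraries. The groups overlapped under both agents, and the difference of -0.19 did not pass (95% interval -0.51 to 0.12, adjusted p = 0.742). A level summed over every liver cell and the whole gene cannot tell whether macrophages had lost it. The list of PPAR and RXR receptors and coregulators, which includes Pparg, had 0 of 19 members called, with 3 higher in KO at an unadjusted p under 0.05 (5.16% of all genes were), among them Ppara, the fatty acid receptor of hepatocytes, at 0.33 and its partner Rxra at 0.17. The median of the list was 0.09, against 0.06 over all genes tested. Without the 2 libraries that stand apart it was -0.01, with 1 member higher at that level (2.68% of all genes were).

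Genes that PPARgamma is known to switch on in macrophages showed no call. Of 25 listed, 20 were tested, 0 passed and 0 had an unadjusted p under 0.05. Their median was 0.09, and -0.11 without the 2 libraries that stand apart. Cd36, a fatty acid and oxidized lipoprotein receptor, had 134, 153 and 150 FPKM in KO libraries under DEHP, against 93.4, 139 and 150 FPKM in WT libraries. Under CMC Cd36 had 26.02, 12.3 and 16.4 FPKM in KO libraries, against 23.7, 23.8 and 19.6 FPKM in WT libraries. Cd36 thus followed the agent in both genotypes and overlapped between them (-0.06, 95% interval -0.43 to 0.31). Fabp4, a fatty acid binding protein, differed by -0.06 (-0.64 to 0.52). The cholesterol exporters Abca1 and Abcg1 differed by 0.11 (-0.15 to 0.37) and 0.04 (-0.23 to 0.30). Nr1h3, the sterol receptor that induces both exporters, lay between 56.5 and 69.7 FPKM in KO and between 52.2 and 64.4 FPKM in WT, a difference of 0.10 (-0.06 to 0.25). Hepatocytes also express Cd36, Abca1 and Nr1h3. Angptl4, a lipase inhibitor, differed by -0.57 (-1.22 to 0.08), with 75.5 FPKM in WT CMC replicate 7 and at most 35.3 FPKM in the 10 libraries that group together.

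Across the 10862 genes with at least 1 FPKM in 3 or more libraries, 0 were called higher (0%) and 2 lower (0.0184%) in KO. In the same fit the agent gave 1826 genes higher (16.8%) and 1413 lower (13.0%) in DEHP against CMC. At an unadjusted p under 0.05, 732 genes differed by genotype (6.74%), 560 of them higher in KO (5.16%) and 172 lower (1.58%). The 95% interval of 10692 genes (98.4%) lay within 1 log2 unit of 0, with a median half-width of 0.228, and 17 genes had a difference over 1 in size. Libraries of WT were more variable than those of KO: the median SD within groups was 0.142 in KO and 0.204 in WT, and 0.138 in WT without the 2 libraries that stand apart. Without these 2 libraries the calls were again 0 higher and 2 lower, and 595 genes had an unadjusted p under 0.05 (5.48%), 291 higher and 304 lower. The median difference of all genes was 0.06 with 12 libraries and 0.00023 without the 2.

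**Figure D2:**
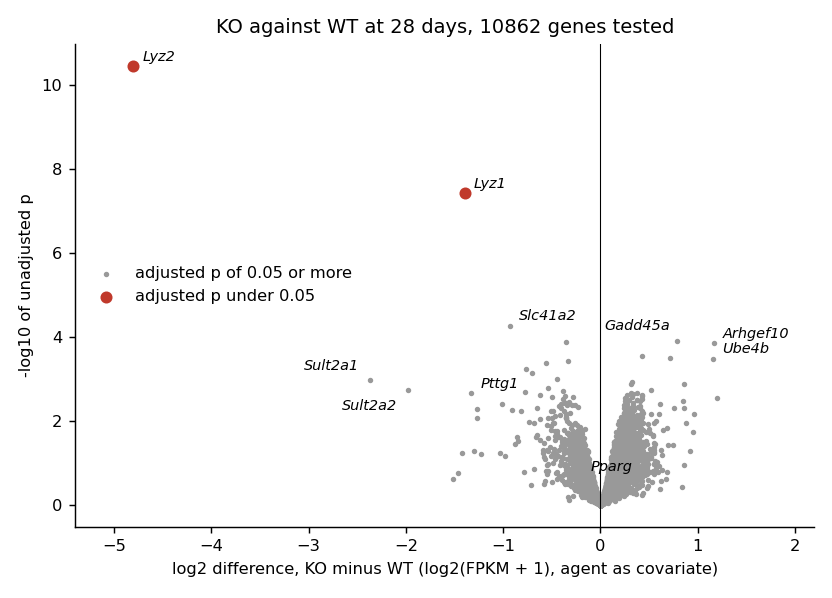
Difference of each of the 10862 tested genes (x axis, log2(FPKM + 1), KO minus WT at 28 days) against -log10 of its unadjusted limma p (y axis). Red points passed an adjusted p of 0.05, and labelled grey genes are described in the text. Lyz2 at -4.80 and Lyz1 at -1.39 stand alone, and Slc41a2 is next by p.

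The genes that followed by p-value are given because of their rank, so they were chosen after their values were seen, and none passed the test. Slc41a2, a magnesium transporter, had 5.47, 4.73 and 3.63 FPKM in KO libraries under DEHP, against 14.5, 6.08 and 8.76 FPKM in WT libraries. Under CMC Slc41a2 had 3.48, 2.72 and 2.64 FPKM in KO libraries, against 6.41, 8.14 and 5.97 FPKM in WT libraries. All 6 KO libraries lay below all 6 WT libraries, yet the difference of -0.93 (SE 0.161) had an adjusted p of 0.195. It passed when WT DEHP replicate 6 was left out (-1.06, adjusted p = 0.0165). That was its 1 pass in 12 single omissions, with adjusted p up to 0.45. Slc41a2 lies on chromosome 10 as the lysozymes do, at chr10:83230848-83338037, more than 10 Mb away.

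Gadd45a, a growth arrest gene induced by DNA damage, had 10.1, 6.05 and 5.32 FPKM in KO libraries under DEHP, against 2.75, 3.40 and 3.22 FPKM in WT libraries. Under CMC Gadd45a had 3.19, 5.38 and 5.27 FPKM in KO libraries, against 2.63, 2.31 and 2.77 FPKM in WT libraries. KO libraries were higher within each agent, with a difference of 0.79 (SE 0.148, adjusted p = 0.256). Arhgef10, a guanine nucleotide exchange factor, had 2.43, 1.97 and 2.19 FPKM in KO libraries under DEHP, against 0.22, 0.29 and 0.66 FPKM in WT libraries. Under CMC Arhgef10 had 0.78, 3.51 and 4.75 FPKM in KO libraries, against 0.76, 0.83 and 0.39 FPKM in WT libraries, so that KO CMC replicate 5 sat among the wild type (1.17, SE 0.223, adjusted p = 0.256). Without KO CMC replicate 5 both genes passed, Gadd45a at 0.89 (adjusted p = 0.0474) and Arhgef10 at 1.40 (adjusted p = 5.73e-04). For each gene that was the 1 pass in 12 single omissions. Adjusted p reached 0.631 for Gadd45a and 0.719 for Arhgef10 in the rest.

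Ube4b, a ubiquitin ligase, ranged between 10.1 and 33.8 FPKM in KO and between 6.54 and 11.8 FPKM in WT (1.15, SE 0.242, adjusted p = 0.395). Its lowest KO library was KO DEHP replicate 7, and without it Ube4b passed at 1.38 (adjusted p = 0.0134). Ube4b passed in no other single omission, with adjusted p up to 0.893. Alas1, the first enzyme of heme synthesis, had 142, 158 and 93.2 FPKM in KO libraries under DEHP, against 76.1, 87.8 and 65.7 FPKM in WT libraries. Under CMC Alas1 had 70.7, 65.5 and 59.0 FPKM in KO libraries, against 53.0, 41.6 and 28.9 FPKM in WT libraries, higher in KO within each agent (0.71, SE 0.149, adjusted p = 0.395). Efna1, the ligand ephrin A1, was 34.6 to 36.6 FPKM in KO DEHP libraries and 41.2 to 49.4 FPKM in WT DEHP libraries (-0.36, SE 0.0675, adjusted p = 0.256). The splicing-related gene Rsrp1 differed by -0.33 and the telomere replication gene Stn1 by 0.43, with adjusted p of 0.41 and 0.395.

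In 16 genes, chosen after their values were seen, all 6 KO libraries lay apart from all 6 WT libraries, 11 higher (0.101% of genes tested) and 5 lower (0.0460%). The lower ones were Lyz2, Lyz1, Slc41a2, the mitochondrial thymidine kinase Tk2 and the cytochrome gene Cyb561. Tk2 lay between 5.83 and 7.03 FPKM in KO and between 7.21 and 8.91 FPKM in WT, and Cyb561 between 1.69 and 2.09 FPKM in KO and between 2.39 and 5.96 FPKM in WT. The higher ones were Stn1, Gstm5, Zfp759, Msto1, Hccs, Dcaf15, Ppp6r2, Nap1l4, Cstf2, Aspscr1 and Cep250. Among them Gstm5, a glutathione transferase, lay between 10.4 and 12.9 FPKM in KO and between 7.39 and 9.76 FPKM in WT (0.33, adjusted p = 0.722). All 11 differences were at most 0.43.

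Marker genes of macrophages other than lysozyme did not separate the genotypes. Of 28 Kupffer cell and macrophage markers, 0 were called and 0 had an unadjusted p under 0.05. Clec4f, a lectin specific to Kupffer cells, had 65.5, 56.2 and 40.3 FPKM in KO libraries under DEHP, against 24.8, 61.7 and 52.8 FPKM in WT libraries. Under CMC Clec4f had 75.0, 75.0 and 65.5 FPKM in KO libraries, against 54.0, 89.4 and 33.4 FPKM in WT libraries. The lowest values are those of WT DEHP replicate 5 and WT CMC replicate 7, and the genotypes overlap among the rest. The difference was 0.34 (95% interval -0.17 to 0.85) and -0.03 without the 2 libraries. Cd5l, a secreted macrophage protein, differed by 0.30 (-0.29 to 0.88) and by -0.14 without them, the complement component C1qb by 0.22 (-0.25 to 0.69) and by -0.08 without them, and the complement receptor Vsig4 by 0.41 (-0.05 to 0.86) and by 0.08 without them. The median of the list was 0.29, and -0.08 without the 2 libraries. Its summed level ran between 492 and 811 FPKM in KO and between 330 and 889 FPKM in WT, with 330 and 369 FPKM in the 2 libraries and 602 to 889 FPKM in the other 4 of WT.

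Monocyte and neutrophil markers held the lysozymes and no further call. Of 20 listed, 9 were tested and 2 fell, Lyz2 and Lyz1, and Camp, a granule peptide gene, was listed at 0 in all 12 libraries. Of the 9 tested, 4 had a positive difference and 5 a negative one, the lysozymes included. Their median was -0.14, and -0.16 without the 2 libraries that stand apart. At an unadjusted p under 0.05, 1 member was higher in KO (5.16% of all genes were) and 2 lower (1.58% were), the lysozymes. Without the lysozymes the summed level of the list ran between 18.2 and 49.3 FPKM in KO and between 19.2 and 69.8 FPKM in WT. Plac8, the most abundant after Lyz2, lay between 10.1 and 21.5 FPKM in KO and between 8.36 and 30.5 FPKM in WT (0.01, 95% interval -0.54 to 0.56). The neutrophil alarmin S100a8 had 7.94, 8.90 and 0 FPKM in KO libraries under DEHP, against 4.41, 4.58 and 5.60 FPKM in WT libraries, and 1.91, 2.37 and 1.30 FPKM in KO libraries under CMC, against 3.72, 15.6 and 8.35 FPKM in WT libraries. Its difference of -1.03 did not pass (-2.11 to 0.05, adjusted p = 0.724), and its partner S100a9 differed by -0.20 (-0.69 to 0.29).

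Sinusoidal endothelial markers, of the cells that line the liver's small vessels, moved with the 2 libraries that stand apart. All 16 lay on the higher side in KO with a median of 0.45, 0 were called, and without the 2 libraries the median was -0.02. The summed level was 206 to 285 FPKM in KO and 243 to 294 FPKM in 4 libraries of WT, with 75.2 FPKM in WT DEHP replicate 5 and 104 FPKM in WT CMC replicate 7. Clec4g, a lectin of these cells, differed by 0.35 and by -0.15 without the 2 libraries, and the inhibitory Fc receptor Fcgr2b by 0.46 and by -0.14 without them. Lyve1, a hyaluronan receptor, had 5.98, 5.75 and 4.57 FPKM in KO libraries under DEHP, against 0.76, 6.02 and 6.18 FPKM in WT libraries. Under CMC Lyve1 had 5.12, 4.21 and 5.78 FPKM in KO libraries, against 2.37, 1.47 and 1.01 FPKM in WT libraries (0.88 over both agents, adjusted p = 0.724, and 0.45 without the 2 libraries).

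Other cell types gave 0 calls as well. Stellate cell and matrix genes had 2 of 15 higher in KO at an unadjusted p under 0.05 (5.16% of all genes were), among them the matrix protein Ecm1 at 0.31. Without the 2 libraries that stand apart 0 were higher and 4 lower at that level (2.80% of all genes were lower). Their median was 0.09, and -0.18 without the 2 libraries, with the proteoglycan Dcn at 0.24 (-0.05 without them) and the collagen Col1a2 at -0.20. Lymphocyte markers were near the floor, 7 of 20 listed tested, 4 with a positive difference and 3 with a negative one (median 0.05). Among them the cytotoxic granule genes Nkg7 and Gzma differed by -0.05 and -0.20. Genes of dendritic cells and MHC class II had a median of 0.05 in 6 tested, and -0.23 without the 2 libraries, with the invariant chain Cd74 at 0.06 and H2-Ab1 at -0.01. Bile duct markers had a median of -0.30 in 5 tested (-0.45 without the 2 libraries), with osteopontin, Spp1, at -0.49 (adjusted p = 0.724) and the keratin Krt19 at -0.54, for which WT CMC replicate 6 held 7.98 FPKM and the other 11 libraries at most 1.19 FPKM. Erythroid markers had a median of 0.40 in 5 tested (0.59 without them), with the globins Hbb-bs at 0.40 and Hba-a1 at 0.41. Adipocyte markers had a median of -0.06 in 5 tested (-0.19 without them) and Lep was listed at 0, with Car3, which hepatocytes express too, at -0.18. Of 12 exocrine pancreas markers, 2 were tested, Cela1 at 0.30 and Cela2a at -0.08, and Prss2, Cpa1 and Clps were listed at 0 in all 12 libraries.

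**Figure D3:**
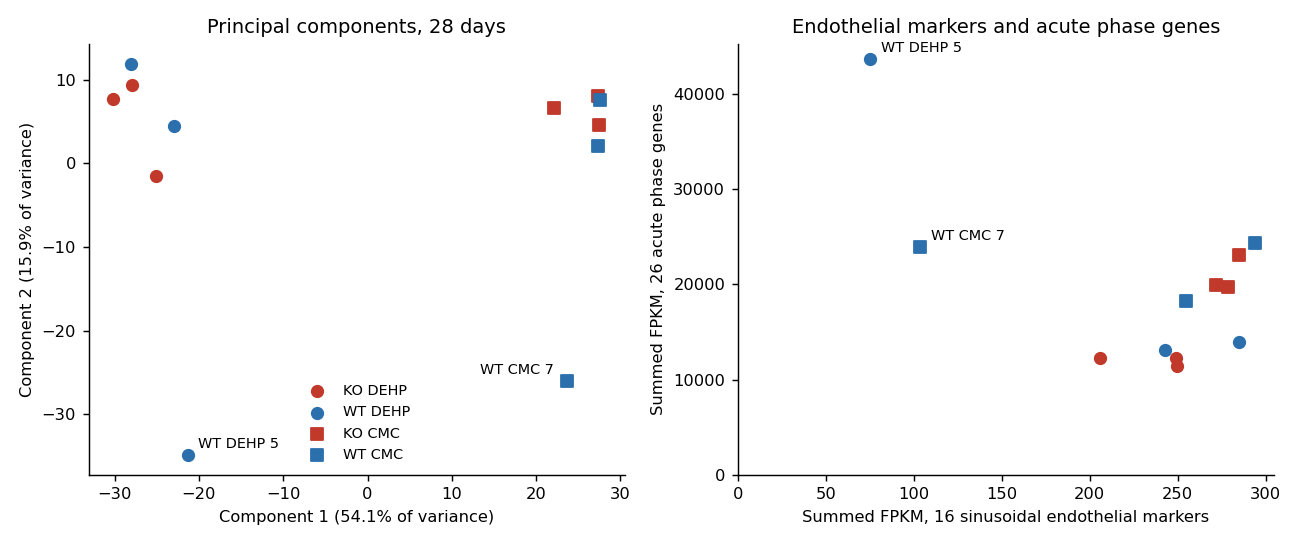
Left, first 2 principal components of the 12 libraries of 28 days (KO red, WT blue; circles DEHP, squares CMC). Right, summed FPKM of 16 sinusoidal endothelial markers (x axis) against summed FPKM of 26 acute phase genes (y axis) in the same libraries. WT DEHP replicate 5 and WT CMC replicate 7 lie apart in both panels, at 75.2 and 104 FPKM of endothelial markers, and every KO library lies between 206 and 285 FPKM.

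Inflammatory genes, which PPARgamma is known to restrain in macrophages, showed no call. Of 30 cytokine and chemokine genes 20 were tested, 0 passed and 0 had an unadjusted p under 0.05 (median 0.14, and -0.09 without the 2 libraries). Cxcl13, a lymphocyte attractant, had 2.89, 8.35 and 2.54 FPKM in KO libraries under DEHP, against 1.73, 3.41 and 2.74 FPKM in WT libraries, and differed by 0.55 over both agents (95% interval -0.02 to 1.12). Cxcl1, a neutrophil attractant, had 2.21, 5.76 and 1.29 FPKM in KO libraries under DEHP, against 17.3, 5.17 and 7.04 FPKM in WT libraries (-0.56 over both agents, -1.37 to 0.25). Il1b differed by 0.18 and Ccl2 by 0.21. Interferon-stimulated genes had 0 of 29 called and 1 at an unadjusted p under 0.05, with a median of 0.13, and 0.06 without the 2 libraries. That gene was Usp18, a protease that removes ISG15 from proteins, at 0.43 (adjusted p = 0.722), while Isg15 itself differed by 0.14 (-0.17 to 0.45).

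Acute phase genes, which hepatocytes make in inflammation, leaned lower in KO without a call. Of 26 tested, 24 had a negative difference, 6 of them at an unadjusted p under 0.05, against 1.58% of all genes, and the median was -0.38. Without the 2 libraries the median was -0.11 and 2 members were lower at an unadjusted p under 0.05 (2.80% of all genes were). Serum amyloid Saa1 had 27.4, 62.9 and 32.9 FPKM in KO libraries under DEHP, against 5878, 72.0 and 16.03 FPKM in WT libraries. The iron carrier Lcn2 had 33.7, 29.0 and 26.1 FPKM in KO libraries under DEHP, against 859, 30.1 and 28.5 FPKM in WT libraries. In both genes the high value is that of WT DEHP replicate 5 alone. The 6 at an unadjusted p under 0.05 were Orm2 (-0.88), Orm3 (-0.85), Itih4 (-0.54) and the fibrinogen chains Fga (-0.48), Fgg (-0.43) and Fgb (-0.37). Without the 2 libraries Fga differed by -0.28 and Itih4 by -0.31. The part of the state of WT DEHP replicate 5 in this list beyond these values was not tested.

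Fatty acid oxidation and PPARalpha target genes lay on the higher side in KO, also without a call. Of 50 tested, 47 had a positive difference and 13 an unadjusted p under 0.05, all higher in KO, against 5.16% of all genes. The median was 0.23, against 0.06 over all genes, and 0.18 without the 2 libraries. In that fit 4 members were higher at an unadjusted p under 0.05 (2.68% of all genes were). Ehhadh, a peroxisomal enzyme of fatty acid oxidation, had 4125, 5340 and 5032 FPKM in KO libraries under DEHP, against 1970, 4028 and 4853 FPKM in WT libraries. Under CMC Ehhadh had 394, 135 and 98.4 FPKM in KO libraries, against 118, 70.4 and 101 FPKM in WT libraries. The genotypes overlapped under both agents, with the lowest DEHP value in WT replicate 5 and the highest CMC value in KO replicate 5 (0.69, SE 0.301, adjusted p = 0.724). The peroxisomal thiolase Acaa1b differed by 0.49 (95% interval 0.13 to 0.86), the mitochondrial trifunctional subunit Hadha by 0.30 (0.08 to 0.53) and the peroxisome proliferation gene Pex11a by 0.54. Cpt1a, which admits fatty acids to mitochondria, differed by 0.20 (-0.06 to 0.47). By agent, the median of the list was 0.29 under DEHP and 0.16 under CMC.

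The remaining lipid lists lay close to all genes. Fatty acid and triglyceride synthesis had a median of 0.13 in 25 tested, lipid uptake and droplet genes of 0.07 in 23, sterol synthesis of -0.0021 in 25 and bile acid synthesis and transport of 0.10 in 25, each with 0 called. Plin5, a lipid droplet protein that contacts mitochondria, had 22.2, 28.0 and 24.4 FPKM in KO libraries under DEHP, against 21.03, 19.3 and 20.2 FPKM in WT libraries. Under CMC Plin5 had 44.3, 35.8 and 22.5 FPKM in KO libraries, against 21.6, 25.2 and 21.3 FPKM in WT libraries (0.40 over both agents, SE 0.132, adjusted p = 0.724). Genes of xenobiotic metabolism induced through CAR and PXR had 0 of 35 called and a median of 0.09, with Alas1 the member of smallest p. Those of the oxidative stress factor NRF2 had 0 of 24 called and a median of 0.07, with glutathione reductase, Gsr, at 0.34. Unfolded protein response genes had a median of -0.12 in 25 tested, and proliferation genes of 0.14 in 13, each with 0 called. Without the 2 libraries that stand apart the medians were -0.01 for bile acid genes, -0.01 for CAR and PXR targets, 0.01 for NRF2 targets and 0.03 for proliferation genes.

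**Figure D4:**
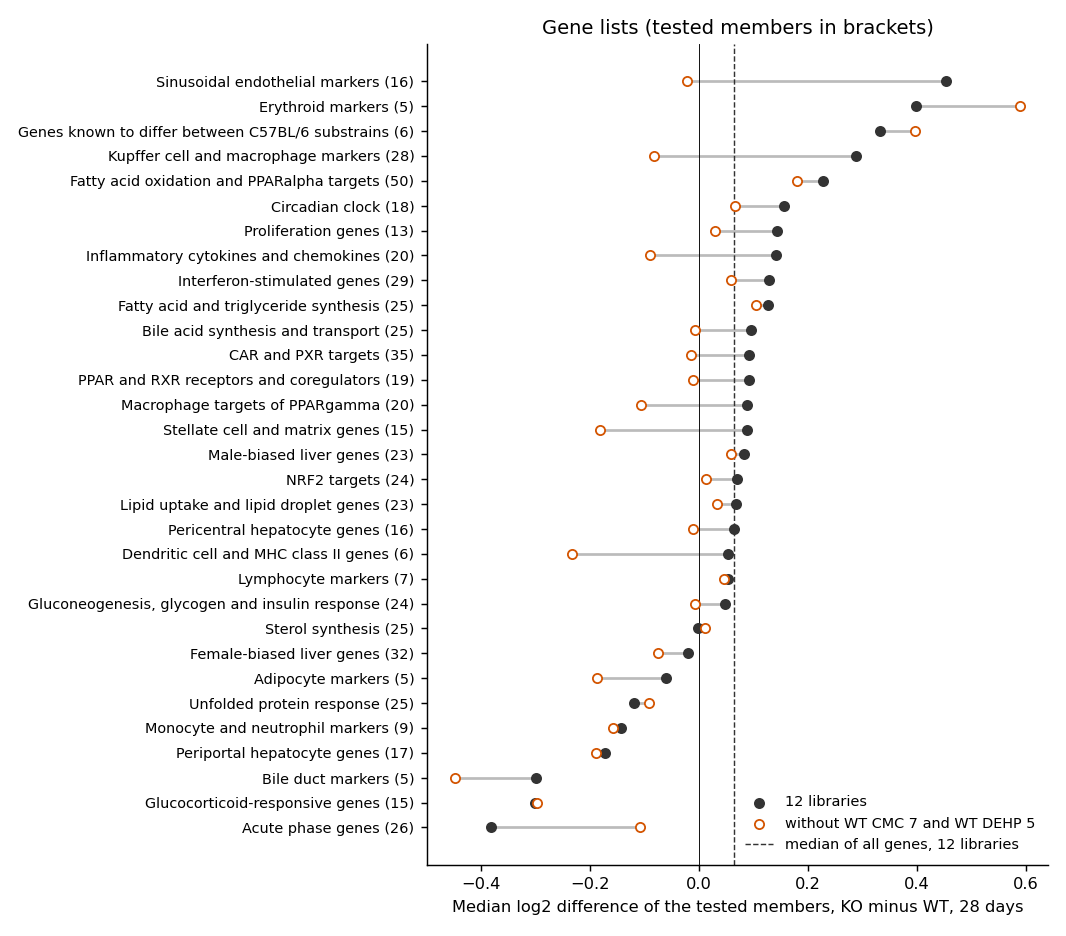
Median difference (KO minus WT at 28 days, log2 scale) of the tested members of each gene list with at least 5 of them, with 12 libraries (filled) and without WT CMC replicate 7 and WT DEHP replicate 5 (open). The dashed line is the median of all genes, 0.06. Endothelial markers go to -0.02 and Kupffer cell markers to -0.08 when the 2 libraries are left out, while fatty acid oxidation genes stay at 0.18.

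Female-biased liver genes, whose levels depend on the pattern of growth hormone release, held the lowest differences after Lyz2. Of 32 tested, 0 were called over both agents, 7 were lower and 1 higher at an unadjusted p under 0.05, against 1.58% and 5.16% of all genes. Their median was -0.02, and -0.08 without the 2 libraries that stand apart. Sult2a1, a sulfotransferase of steroids and bile acids, had 30.9, 7.90 and 2.51 FPKM in KO libraries under DEHP, against 48.4, 67.4 and 34.4 FPKM in WT libraries. Under CMC Sult2a1 had 55.0, 3.89 and 37.5 FPKM in KO libraries, against 124, 162 and 80.1 FPKM in WT libraries. KO libraries lay below WT within each agent, as in 24 genes of all those tested (0.221%; 70 genes, or 0.644%, lay above in the same way), but spread widely among themselves (-2.37, SE 0.573, adjusted p = 0.722). Its relative Sult2a2 differed by -1.98 (SE 0.514, adjusted p = 0.722). Sult2a1 and Sult2a2 are close relatives and may share reads. In 23 male-biased genes tested 0 were called, and the median was 0.08.

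Under CMC alone 0 genes were called higher (0%) and 3 lower (0.0276%), Lyz2, Lyz1 and Cyp3a41b, and 368 genes had an unadjusted p under 0.05 (3.39%), 271 higher (2.49%) and 97 lower (0.893%). Without KO CMC replicate 5, or without KO CMC replicate 7, 5 genes were called. Cyp3a41b, a female-biased cytochrome P450 of drug and steroid metabolism, had 1.86, 0.84 and 1.47 FPKM in KO libraries under CMC, against 7.27, 6.82 and 4.91 FPKM in WT libraries (-1.63, SE 0.183, adjusted p = 0.00392). This call was lost with a pseudocount of 0.1 (adjusted p = 0.956) and when the 6 CMC libraries were fitted alone (adjusted p = 0.0597). Under DEHP Cyp3a41b was 0 to 0.16 FPKM in KO and 0 to 0.19 FPKM in WT. Its relatives in the family had the same order under CMC and did not pass with all libraries. Cyp3a41a had 341, 360 and 301 FPKM in KO libraries under CMC, against 852, 880 and 705 FPKM in WT libraries. Cyp3a16 had 4.81, 0.58 and 3.28 FPKM in KO libraries under CMC, against 21.4, 23.1 and 10.3 FPKM in WT libraries (-2.42, SE 0.400, adjusted p = 0.127, and -2.81 with adjusted p = 0.0302 without KO CMC replicate 5). Cyp3a16 passed under CMC in no other single omission, with adjusted p up to 0.788. Cyp3a44 had 20.9, 14.7 and 24.8 FPKM in KO libraries under CMC, against 38.2, 53.9 and 36.2 FPKM in WT libraries (-1.06, SE 0.246, adjusted p = 0.677). No KO library reached a WT library in these 4 genes under CMC. How many of all genes had that order under CMC was not counted, so it is a description only. Reads may be shared among the 4 genes.

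Under DEHP alone 0 genes were called higher (0%) and 1 lower (0.00921%), Lyz2, and 540 had an unadjusted p under 0.05 (4.97%), 340 higher (3.13%) and 200 lower (1.84%). Lyz2 differed by -4.56 under DEHP (SE 0.358, adjusted p = 1.73e-04) and by -5.05 under CMC (SE 0.358, adjusted p = 5.17e-05). Lyz1 differed by -1.24 under DEHP (SE 0.177, adjusted p = 0.0595) and by -1.55 under CMC (SE 0.177, adjusted p = 0.00392). Under DEHP it passed without WT DEHP replicate 7 (adjusted p = 0.0269), with quantile normalization (0.036), with library weights (0.00161) and with no variance trend (0.0436). The genotype by agent test of whether these differences depended on the agent called 0 genes in either direction (0%) by limma, and 291 had an unadjusted p under 0.05 (2.68%), 116 positive (1.07%) and 175 negative (1.61%). Without WT CMC replicate 6 it called 1. For Lyz2 the term was 0.49 (95% interval -0.61 to 1.59), and for Lyz1 it was 0.30 (-0.24 to 0.85). The smallest p was that of Cyp3a41b, at 1.61 (SE 0.259, adjusted p = 0.393), a gene near 0 in all libraries under DEHP.

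The other 4 of the 5 smallest p in that test had differences of opposite sign under the agents. None of them passed. They were chosen by p, so their unadjusted 95% intervals lie away from 0 by that choice. Trex1, an exonuclease that clears cytosolic DNA, had 3.58, 4.50 and 3.18 FPKM in KO libraries under DEHP, against 6.53, 6.84 and 5 FPKM in WT libraries. Under CMC Trex1 had 7.43, 6.28 and 5.72 FPKM in KO libraries, against 4.84, 3.35 and 4.73 FPKM in WT libraries, a term of -1.08 (95% interval -1.58 to -0.59). The ribosomal protein gene Rps4l gave 1.12 (0.61 to 1.62), Pigyl gave -0.63 (-0.92 to -0.34), and 2310010J17Rik gave -1.55 (-2.30 to -0.80).

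Genes of glucose production and amino acid breakdown in periportal hepatocytes leaned lower in KO. Of 17 periportal genes tested, 0 were called and 16 had a negative difference. At an unadjusted p under 0.05, 7 were lower, against 1.58% of all genes, and the median was -0.17. Without the 2 libraries the median was -0.19 and 5 were lower at that level, against 2.80% of all genes. Pck1, the rate-limiting enzyme of gluconeogenesis, had 119, 220 and 259 FPKM in KO libraries under DEHP, against 299, 315 and 404 FPKM in WT libraries. Under CMC Pck1 had 463, 381 and 485 FPKM in KO libraries, against 791, 552 and 867 FPKM in WT libraries. No KO library reached a WT library of the same agent (-0.77, SE 0.173, adjusted p = 0.536). G6pc, which releases free glucose, differed by -0.65 (SE 0.193, adjusted p = 0.722) and Tat, of tyrosine breakdown, by -0.48. By agent the median of the list was -0.33 under DEHP and -0.02 under CMC. In the wider list of gluconeogenesis, glycogen and insulin response the median was 0.05 in 24 tested with 0 called, and Igfbp1, a gene that insulin represses, differed by -0.69 (95% interval -1.62 to 0.25). Pericentral genes had 0 of 16 called and a median of 0.06. Without the 2 libraries the medians of both lists were -0.01.

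Clock and glucocorticoid-responsive genes, which follow the hour of the day, had 0 calls. At an unadjusted p under 0.05, 6 of 18 clock genes were higher and 2 lower, and 1 of 15 glucocorticoid-responsive genes was higher and 3 lower, against 5.16% and 1.58% of all genes. Without the 2 libraries that stand apart 2 clock genes were higher and 2 lower. The sources used here do not give the hour of collection. Dbp, a transcription factor with strong daily rhythm, had 17.9, 14.9 and 16.5 FPKM in KO libraries under DEHP, against 3.94, 17.7 and 3.63 FPKM in WT libraries. Under CMC Dbp had 2.56, 3.24 and 4.81 FPKM in KO libraries, against 2.80, 0.90 and 1.79 FPKM in WT libraries (0.96, SE 0.302, adjusted p = 0.724). Its relative Tef differed by 0.52 (SE 0.135, adjusted p = 0.722), Per3 by 0.37 and Nr1d1 by 0.39, while Npas2 differed by -0.38 and Nfil3 by -0.51. The clock activator Arntl differed by -0.18 (95% interval -0.53 to 0.18). The median of the clock list was 0.16, and 0.07 without the 2 libraries. Among glucocorticoid-responsive genes 12 of 15 had a negative difference and 3 a positive one, with a median of -0.30. Without the 2 libraries the median was again -0.30, with 1 member higher and 4 lower at an unadjusted p under 0.05. Of all genes 2.68% were higher and 2.80% lower in that fit. Fkbp5, a chaperone of the glucocorticoid receptor, differed by 0.52, and Tsc22d3, an anti-inflammatory target of that receptor, by -0.47.

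**Figure D5:**
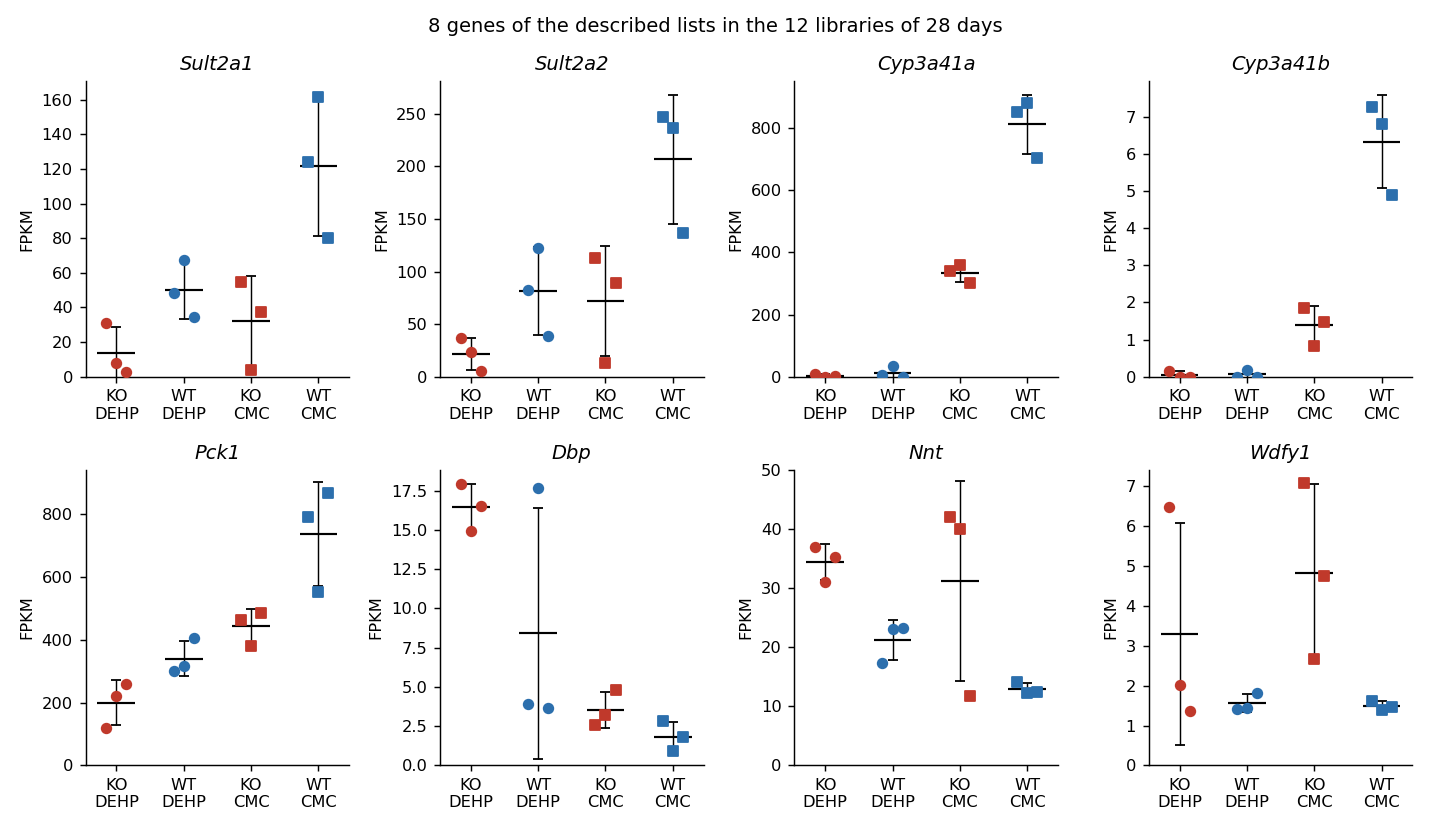
FPKM of 8 genes of the described lists in the 12 libraries of 28 days (KO red, WT blue; circles DEHP, squares CMC; line and bar, group mean and 1 SD, axes from 0). KO libraries lie below WT within each agent for Sult2a1, Sult2a2 and Pck1 and, under CMC, for Cyp3a41a and Cyp3a41b. KO CMC replicate 7 splits from its group in Nnt, and KO libraries spread over several levels in Wdfy1.

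Genes known to differ between C57BL/6 substrains were followed because the labels do not name the substrain. Of 9 listed, 6 were tested, 0 were called and 3 were higher in KO at an unadjusted p under 0.05, against 5.16% of all genes. Nnt, a mitochondrial proton pump whose gene is partly deleted in the C57BL/6J substrain, had 37.1, 31.1 and 35.2 FPKM in KO libraries under DEHP, against 17.3, 23.0 and 23.3 FPKM in WT libraries. Under CMC Nnt had 42.1, 39.97 and 11.7 FPKM in KO libraries, against 14.2, 12.3 and 12.5 FPKM in WT libraries. KO CMC replicate 7 alone sat with the wild type (0.85, SE 0.240, adjusted p = 0.722), and without it Nnt passed at 1.09 (adjusted p = 0.0407). That was the 1 pass of Nnt in 12 single omissions, with adjusted p up to 0.963. Pttg1, securin of chromosome separation, had 3.96, 3.10 and 25 FPKM in KO libraries under CMC, against 22.5, 26.7 and 27.5 FPKM in WT libraries, again with KO CMC replicate 7 beside the wild type. Under DEHP Pttg1 had 15.02, 12.96 and 16.98 FPKM in KO libraries, against 34.9, 28.8 and 25.9 FPKM in WT libraries (-1.33, SE 0.352, adjusted p = 0.722, and -1.66 with adjusted p = 0.0445 without KO CMC replicate 7). Pttg1 passed in no other single omission, with adjusted p up to 0.963. It is not on the list and was chosen after its values were seen.

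Wdfy1, an endosomal adaptor of the same list, had 6.48, 2.02 and 1.37 FPKM in KO libraries under DEHP, against 1.42, 1.45 and 1.82 FPKM in WT libraries. Under CMC Wdfy1 had 7.09, 2.67 and 4.76 FPKM in KO libraries, against 1.62, 1.38 and 1.47 FPKM in WT libraries. The WT libraries agree closely and the KO libraries spread over several levels (0.86, SE 0.256, adjusted p = 0.722). Cyfip2, an actin regulator, lay between 0.48 and 2.40 FPKM in KO and between 0.20 and 0.77 FPKM in WT (0.61, adjusted p = 0.722). The part of strain background in these values was not tested. Within 10 Mb of Lyz2, 68 genes were tested, the 2 lysozymes were called and 6 had an unadjusted p under 0.05 (8.82%, against 6.74% of all genes). Within 10 Mb of Pparg on chromosome 6, 117 were tested, 0 were called and 12 had an unadjusted p under 0.05 (10.3%). Within 2 Mb the counts were 3 of 21 around Lyz2 (14.3%), both lysozymes included, and 6 of 29 around Pparg (20.7%).

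The same contrast at 90 days, in 16 libraries of the series, is given for comparison. Libraries of 90 days differ in exocrine pancreas RNA: all 12 listed markers reached 1 FPKM in KO DEHP replicates 1, 2 and 3, WT CMC replicate 4 and WT DEHP replicate 4. The summed level of the markers lay between 8842 and 37354 FPKM in these 5 libraries, between 23.6 and 49.7 FPKM in the other 11 of 90 days and between 9.68 and 26.9 FPKM at 28 days. The elastase gene Cela2a had 4046, 1632, 6682 and 9.38 FPKM in KO DEHP libraries of 90 days, and at most 1.32 FPKM in KO CMC libraries. The part of pancreas RNA in the differences of 90 days was not tested beyond leaving out the 5 libraries. Fitted with 8 group means to all 28 libraries, the genotype contrast at 90 days called 107 of 11213 genes (0.954%), 79 higher (0.705%) and 28 lower (0.250%), or 57 higher and 40 lower after upper quartile scaling. At an unadjusted p under 0.05, 1082 were higher (9.65%) and 372 lower (3.32%). Leaving out KO CMC replicates 2, 3 or 4, KO DEHP replicates 1, 3 or 4, WT CMC replicate 3 or WT DEHP replicates 1 or 2 of 90 days, 1 at a time, gave 42 to 71 calls. Without the 5 libraries rich in pancreas RNA, where KO DEHP keeps 1 library assumed to vary like the others, 61 genes were called, 47 higher and 14 lower, and 21 of them were also called with all libraries. At 90 days Lyz2 had 0.83 to 2.19 FPKM in 8 KO libraries, against 49.2 to 105 FPKM in 8 WT libraries, a difference of -4.88 (SE 0.177, adjusted p = 1.06e-15), and the genotype by time term of 0.08 did not pass (adjusted p = 0.952). Of the 107 genes called at 90 days, 102 were tested at 28 days, where 72 had the same sign. Of these, 11 had an unadjusted p under 0.05 at 28 days, and 1, Lyz2, was called at both times. Most genes leaned the same way at 28 days: of all 10862 tested, 7733 were higher in KO and 3129 lower. An unadjusted p under 0.05 was found in 6.74% of them. Without the 2 wild-type libraries of 28 days that stand apart, 5440 were higher and 5422 lower. How far the lean accounts for the shared signs was not tested, and they are not taken as a measure of recurrence. Wdfy1 rose at 90 days by 1.32 (adjusted p = 5.59e-04) and Tef and Dbp rose by 0.56 and 1.13 (adjusted p = 0.0147 for Tef and 0.0148 for Dbp). Nnt overlapped between the genotypes at 90 days, with 7.67 to 27.4 FPKM in KO and 8.66 to 14.7 FPKM in WT. Cyfip2 had 0.27 to 2.62 FPKM in KO and 0.27 to 0.56 FPKM in WT. Without the 5 libraries Lyz2 and Wdfy1 passed (adjusted p = 1.2e-09 for Lyz2 and 0.0301 for Wdfy1), while Tef and Dbp did not (0.0955 for Tef and 0.0755 for Dbp). Pparg differed by -0.09 at 90 days (adjusted p = 0.9). The genes described for their rank at 28 days did not pass at 90 days, with adjusted p between 0.0804 and 0.990. Slc41a2 differed by -0.02, Stn1 by 0.13, Rsrp1 by -0.37, Gadd45a by 0.41, Ube4b by 0.77 and Arhgef10 by 0.88. Efna1 and Alas1 had the opposite sign to that at 28 days, at 0.07 and -0.70.

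The genotype by time test called 0 genes in the positive direction (0%) and 2 in the negative (0.0178%), Lyz1 and Cyp3a41b. At an unadjusted p under 0.05, 899 genes had a term (8.02%), 498 positive (4.44%) and 401 negative (3.58%). Lyz1 at 90 days had 2.46, 2.2, 3.66 and 5.80 FPKM in KO libraries under DEHP, against 2.65, 2.15, 3.01 and 1.5 FPKM in WT libraries. Under CMC Lyz1 at 90 days had 0.74, 1.24, 1.17 and 0.54 FPKM in KO libraries, against 2.48, 2.32, 2.48 and 2.53 FPKM in WT libraries. KO was thus below WT at 90 days under CMC and not under DEHP, and over both agents the difference was -0.23 (adjusted p = 0.5), against -1.39 at 28 days (term -1.16, SE 0.205, adjusted p = 0.0421). KO DEHP replicates 1, 2 and 3 are rich in pancreas RNA and replicate 4, with the highest Lyz1, is not. Without the 5 libraries the difference of Lyz1 at 90 days was 0.04 and the term -1.43 (adjusted p = 5.23e-04), with 17 genes called. Leaving out single libraries ended the call of the Lyz1 term in 18 of 28 omissions, with adjusted p between 0.0116 and 0.149, and the number of calls was 6 without KO DEHP replicate 5 and 5 without KO CMC replicate 7, both of 28 days. Cyp3a41b was listed at 0 in all 16 libraries of 90 days, and its term did not pass with a pseudocount of 0.1 (adjusted p = 0.557). The sex transcripts differ between the libraries of 28 and 90 days, so time and sex cannot be told apart in these tests.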

How the data were processed

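RNA of whole mouse liver was extracted with Trizol and made into TruSeq libraries for Illumina sequencing, per the labels. The authors deposited 1 table of FPKM per gene and library, 17792 genes to 2 decimals. Cuffdiff, and as builds mm10 and GRCm38, are named in the submitters' processing notes. Aligner and read totals are not given in the sources used here. Groups were taken from the labels. FPKM were used as deposited, without rescaling, as log2(FPKM + 1), for genes that reached 1 FPKM in 3 or more of the libraries fitted. In R 4.3.3, limma 3.58.1 with a variance trend fitted genotype and agent to the 12 libraries of 28 days, 4 group means for each agent and the interaction, and 8 group means to all 28 libraries for 90 days and genotype by time. Tests were two-sided, with Benjamini-Hochberg adjustment over all genes of a comparison, and the fits were tested on simulated data. The pseudocount understates changes of low genes. Positions are of RefSeq genes on GRCm38.p6, matched by Entrez number for 17743 genes (99.7%), and coding sequences are of GENCODE M21. Depth was estimated from genes with 1 transcript of 400 to 1500 bases by the spacing of low FPKM.

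The members and the 32 gene lists were chosen with earlier results of these data known, so counts over lists are descriptions. Named by rule were Pparg and Lyz2, called genes whose groups do not overlap, the 3 smallest adjusted p of lists with at least 2 called members, the called or 5 smallest p of the interaction, called genes within 10 Mb of Lyz2 or Pparg, and the 2 most abundant members of cell marker lists. Members of described lists are named beyond these, and other genes are said to be chosen after their values were seen. Some list members are not reported here. Same-numbered KO and WT libraries had correlated deviations of -0.16 to 0.0266, so the numbers were not taken to pair libraries. Alternatives were library weights, no variance trend, quantile normalization, upper quartile scaling, a pseudocount of 0.1, no filter, a filter of 5 FPKM, the replicate number as a block, other sets of libraries in the fit and each library left out. Leaving out the 2 wild-type libraries that stand apart, or the 5 libraries of 90 days with over 1000 FPKM of the pancreas gene Cela2a, was chosen after seeing the data. Plots were drawn with matplotlib 3.10.9, and tables were handled with pandas 2.3.3 and numpy 2.4.6, under Python 3.11.15.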

Additional observations from a re-analysis of the deposited data

Results flagged for a closer look

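The difference between KO and WT of Lyz1 was larger at 28 days than at 90 days. The difference of the log2 differences was -1.16 (adjusted p = 0.0421 by limma over all genes). This Lyz1 term lost its call in 18 of 28 single omissions (adjusted p up to 0.149). It also did so with no filter, upper quartile scaling, the replicate block or without the 2 libraries that stand apart. At 90 days Lyz1 was lower in KO under CMC and not under DEHP. The term of Cyp3a41b was -0.82 (adjusted p = 0.00631). Cyp3a41b was listed at 0 in all libraries of 90 days, and its term did not pass with a pseudocount of 0.1 (adjusted p = 0.557). Sex transcripts differ between the times, so time and sex cannot be told apart in these terms. In groups of 4 libraries at 90 days, 32 group values of 8 genes were examined for a single library far from its group, of which chance flags about 1 in 20. In Lyz2, WT CMC replicate 3 had 105 FPKM and its other 3 libraries 76.7 to 80.6 FPKM. In Dbp, KO CMC replicate 1 had 48.5 FPKM and its other 3 libraries 68.0 to 70.2 FPKM. In Cela2a, an exocrine pancreas gene, WT CMC replicate 4 had 2749 FPKM and its other 3 libraries 0.69 to 2.23 FPKM, and WT DEHP replicate 4 had 3923 FPKM and its other 3 libraries 0.10 to 2.14 FPKM. Groups of 28 days hold 3 libraries and were not examined this way.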

How the results depend on the processing

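Over both agents at 28 days, Lyz2 kept its direction and its call under every alternative run, and Lyz1 did wherever it was tested. Over both agents 2 genes were called: 1 with a filter of 5 FPKM, where Lyz1 is not tested, 5 in a fit of all 28 libraries (adding Cyp3a41b, Cyp3a16 and Sult2a1), and 2 to 4 when single libraries were left out. Under DEHP the 1 call became 2 with quantile normalization or no variance trend and 15 with library weights (leave-one-out 1 to 2). Under CMC the 3 calls became 1 with a filter of 5 FPKM, and Cyp3a41b was also lost with a pseudocount of 0.1 or the CMC libraries alone (leave-one-out 3 to 5). The genotype by agent test had 0 calls, and 1 with quantile normalization (leave-one-out 0 to 1). At 90 days the 107 calls became 48 without a filter, 168 with library weights, 163 without the 2 libraries that stand apart and 61 without the 5 rich in pancreas RNA (leave-one-out 42 to 138). Genotype by time had 2 calls, and 1 with a pseudocount of 0.1 (Cyp3a41b lost). It also had 1 with no filter, upper quartile scaling, the replicate block or without the 2 libraries, and Lyz1 was lost in these 4. The number was 0 with a filter of 5 FPKM and 17 with library weights (leave-one-out 1 to 6).

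The replicate block, over numbers that do not pair the libraries, gave 3 calls at 28 days (adding Alas1, adjusted p = 0.0377), 84 at 90 days, and changed no other call over the 28-day tests. The cause of these changes was not tested. Among named genes in the comparison over both agents at 28 days, 1732 of 1790 values kept direction and side of the threshold, 10 passed the test under an alternative and 48 changed sign, in genes whose differences did not pass.

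Sign changes were as follows. With upper quartile scaling Plac8 was -0.035. With quantile normalization Plac8 was -0.040 and Abcg1 -0.036. With library weights Plac8 was -0.090, Cd74 -0.23, Abca1 -0.027, Abcg1 -0.038, Cela2a 0.0085 and the genotype by time term of Lyz2 -0.090. Without the 2 libraries Cd5l was -0.14, C1qb -0.080, Clec4f -0.031, Plac8 -0.11, Cd74 -0.37, Clec4g -0.15, Fcgr2b -0.14, Dcn -0.048, Abca1 -0.071, Abcg1 -0.087, Cela2a 0.081 and the Lyz2 term -0.28. Leave-one-out ranges that cross 0 were -0.10 to 0.24 for the Lyz2 term, -0.13 to 0.26 for Plac8, -0.13 to 0.24 for Cd74, -0.029 to 0.099 for Abcg1, -0.24 to 0.035 for Cela2a, -0.38 to 0.0048 for Car3, -0.18 to 0.076 for Cd36, -0.26 to 0.19 for Fabp4, -0.17 to 0.15 for H2-Ab1, -0.010 to 0.64 for Hbb-bs and -0.22 to 0.11 for Nkg7. Under DEHP they were -0.20 to 0.028 for Cyp3a16 and -0.084 to 0.071 for Cyp3a41b. Without the 5 libraries Lyz1 at 90 days was 0.036 and the Lyz2 term -0.080.

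Read totals are not known, so no counting interval is given, and levels under 1 FPKM, such as Lyz1 in KO, rest on few fragments.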
